A study of Andropogon gerardi with 36 samples.

Results

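Plots 6 and 9 form 1 of the 6 pairs of field plots in which big bluestem (Andropogon gerardi) was compared on 2-colour arrays. Every array whose titles put a plant of plot 6 in the Cy5 channel and a plant of plot 9 in the Cy3 channel was taken, which gave 8 of the 36 arrays. The plots stood under rainout shelters on a Kansas prairie, where warming and soil moisture availability were the factors studied, and the arrays had been made for maize. Each of the 4 sampling times, named June, JulyA, JulyB and August, had 1 array of subplot 1 and 1 array of subplot 4. The labels give the plants no treatment, tissue, age or growth stage, so which plots or subplots had altered moisture or warming is not stated in the sources used here. Plots 4 and 5, with 7 arrays over the same times and as little said of their treatment, served as the comparison.

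All 4 arrays of subplot 1 set plant 61a against plant 91c. In subplot 4, 3 arrays set 64b against 94a, and the JulyB array set 64a against 94b. The arrays of a subplot therefore share codes over the season, except the JulyB array of subplot 4. The meaning of the letter in a code is not explained in the labels. The 2 arrays of a time are separate subplots, and nothing says whether each RNA came from 1 plant or several. Values are log2 ratios between the channels, converted from deposited log10 ratios whose direction (Cy5 over Cy3 or the reverse) is unstated. The direction is taken to be the same on all 8 arrays, which no source used here states. Under that assumption a positive value means the same side of the comparison on each array, but does not say which plot was higher. Because plot 6 was always in Cy5, a dye effect and a plot difference cannot be told apart in the mean over arrays, whereas a constant dye effect of a probe cancels between times and between subplots.

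Big bluestem is a C4 grass that dominates tallgrass prairie, and it grows through the hot and often dry months of summer. Among the proteins most often discussed in plants under heat and drought are the HSP70 chaperones, which bind unfolded proteins and keep them from clumping. MNB1b is a maize chromatin protein of the HMG type, which binds DNA with little regard to its sequence. TCTP, the translationally controlled tumor protein, is a growth-related protein found across plants and animals, and Sod4A is a superoxide dismutase that removes superoxide radicals. A 2-colour array shows such transcripts only as a ratio between plots, not as a level in either.

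MNB1b had the largest positive August minus June difference, 1.23, of the 22 gene symbols with 3 or more probes, although no single probe passed the test. The mean over its 64 probes with a value on all 8 arrays was -1.29 and -0.70 on the June arrays of subplots 1 and 4, and -0.05 and -1.10 on the JulyA arrays. The JulyB arrays gave 1.11 and -0.49, and the August arrays 0.12 and 0.34. Both June arrays lay below both August arrays, while in July the subplots differed by more than 1 log2 unit at each time. By sign, 150 of the 152 MNB1b probes with a value on the June array of subplot 1 were negative, as were 193 of 196 on the June array of subplot 4. On the August arrays 145 of 213 were positive in subplot 1 and 165 of 201 in subplot 4. In JulyB, 178 of 187 were positive in subplot 1 but 169 of 181 were negative in subplot 4. Of all probes with a value, 52.67% and 43.54% were positive on the June arrays of subplots 1 and 4. The shares were 48.15% and 48.36% on the JulyB arrays and 52.72% and 50.59% on the August arrays.

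August values were above June values without overlap for 63 of the 64 MNB1b probes, whereas that pattern held for 18.2% of all 894 probes with complete values and for 12% of the 830 that are not MNB1b. The August minus June difference had a median of 1.20 over the 64 probes and ran from 0.73 to 1.82, beside a median of 0.09 over all probes. It was positive for 64 of 64 MNB1b probes and for 56.7% of all probes. In limma's test 17 of the 64 had an unadjusted p under 0.05, where positive differences with such a p made up 2.91% of all probes. The slope per sampling step was positive for 64 of 64, against 56.6% of all probes, with a median of 0.45 against 0.03. In limma's test of that slope 46 of the 64 had an unadjusted p under 0.05. Positive slopes with such a p made up 7.38% of all probes and 2.41% of the 830 others. No MNB1b probe passed after Benjamini-Hochberg adjustment (smallest adjusted p = 0.483). These probes are annotated to 1 gene and varied together (median r between probes 0.906 over 8 arrays). Their count is therefore not a count of separate observations. The annotation gives MNB1b to 230 of the 1800 probes with 1 symbol. Whether each reports that gene in big bluestem was not tested.

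The largest August minus June values of MNB1b were 1.82 ± 0.78 (SE; probe 8191), 1.74 ± 0.63 (probe 1233) and 1.71 ± 0.88 (probe 9204). Probe 2095, another of the 8 largest, had a value of 1.67 ± 0.50 and the lowest p among them. Its ratios were -1.35 and -0.85 in June, -0.25 and -0.52 on JulyA arrays, 0.86 and -0.41 on JulyB arrays and 0.49 and 0.66 in August. The remaining 4 of the 8 were probes 180, 875, 5799 and 7669, between 1.48 and 1.66. The limma adjusted p of these 8 ran from 0.808 to 0.848.

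**Figure D1:**
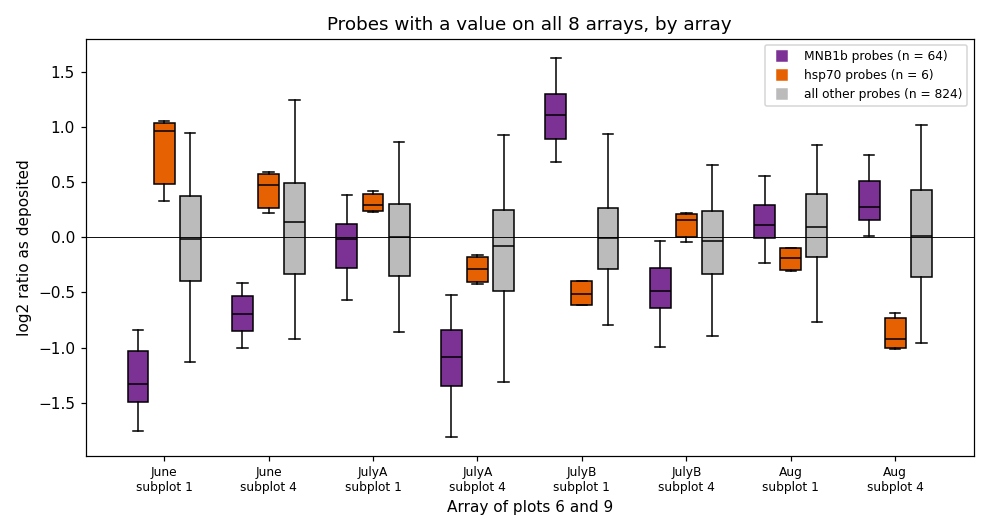
Log2 ratios (vertical axis) on each array of plots 6 and 9 (horizontal axis), for the 64 MNB1b probes, the 6 hsp70 probes and the other probes with a value on all 8 arrays. Values were converted from the deposited log10 ratios without centring. Boxes span the quartiles with the median as a line, and whiskers reach the 5th and 95th percentiles. The MNB1b box is lowest on the June array of subplot 1 and highest on the JulyB array of subplot 1, while the hsp70 box is highest in June and lowest on the August array of subplot 4.

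The hsp70 probes had the opposite order, also without a probe that passed. The mean of the 5 hsp70-5 probes was 0.84 and 0.39 in June (subplots 1 and 4), 0.33 and -0.34 on JulyA arrays, -0.54 and 0.07 on JulyB arrays, and -0.17 and -0.84 in August. Its sign was opposite to that of the MNB1b mean on 7 of the 8 arrays. With the hsp70-4 probe that had complete values, 5 of 6 hsp70 probes had both August arrays below both June arrays, a pattern that 11.5% of all probes showed. Their August minus June difference had a median of -1.25, and 4 of the 6 had an unadjusted p under 0.05, all negative, where the background of negative calls was 2.13%. None passed adjustment. The 5 hsp70-5 probes are annotated to 1 gene and varied together (median r between probes 0.742 over the 8 arrays). The hsp70 counts are therefore not counts of separate observations.

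Of the 6 hsp70 probes, 1 went against the others. The hsp70-5 probe 13766 had 1.82 and 0.52 in June, 0.48 and -0.16 on JulyA arrays, -0.42 and 0.22 on JulyB arrays, and -0.27 and -1.01 in August, an August minus June difference of -1.81 ± 0.56 (SE; limma adjusted p = 0.808). The hsp70-5 probe 5655 had 0.98 and 0.59 in June, 0.42 and -0.10 on JulyA arrays, -0.71 and 0.24 on JulyB arrays, and -0.86 and -0.96 in August, a difference of -1.70 ± 0.47 (limma adjusted p = 0.786). For both probes the August arrays stood below the June arrays with no overlap. The hsp70-5 probe 8475 differed by -1.36 ± 0.47, the hsp70-4 probe 7677 by -1.13 ± 0.47 and the hsp70-5 probe 6217 by -0.96 ± 0.55. The exception was hsp70-5 probe 97, at 0.24 ± 0.46, which had 0.50 and -0.06 in August against 0.33 and -0.36 in June. Over every hsp70 probe with a value, complete or not, 9 of 10 and 17 of 18 were positive on the June arrays, and 16 of 21 and 18 of 18 were negative on the August arrays. Of all probes with a value, 52.67% and 43.54% were positive on the June arrays and 52.72% and 50.59% on the August arrays. Here too the hsp70 probes are not separate observations.

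Across all 894 probes, arrays of the same time were no more alike than others. Pearson's r between the 2 arrays of a time was between -0.244 and 0.136, with a mean of -0.0454 over the 4 times. Arrays of the same subplot at different times had a mean r of 0.0155 (12 comparisons, from -0.318 to 0.362), and arrays that shared neither had 0.00202 (12 comparisons, up to 0.433). These correlations are across probes, which are not independent, and arrays share plant codes. The typical gap between the subplots at a time was of a similar size to that between the ends of the season. Its median size was 0.590, 0.533, 0.441 and 0.468 from June to August, and August and June differed by 0.537 in subplot 1 and 0.462 in subplot 4.

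**Figure D2:**
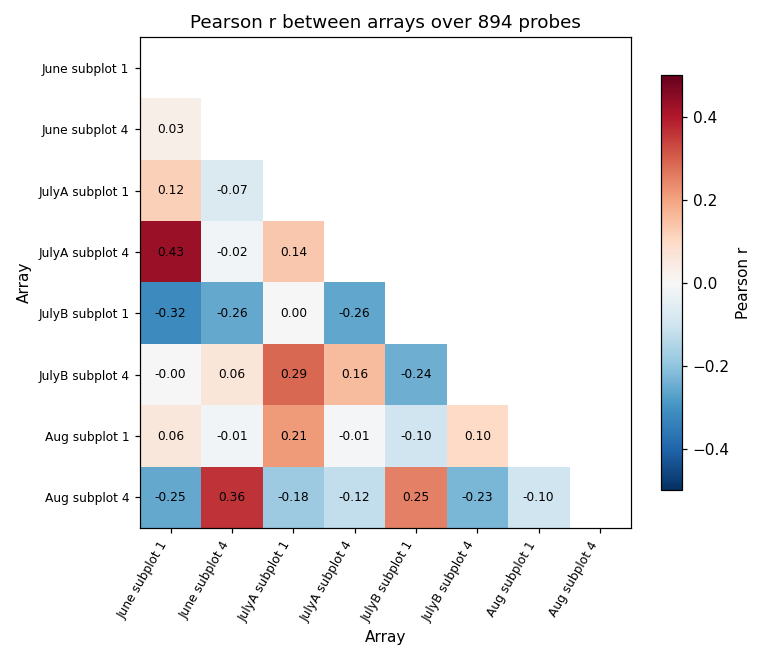
Pearson's r for each of the 28 combinations of 2 arrays of plots 6 and 9, over the 894 probes with a value on all 8 arrays. Both axes list the arrays by sampling time and subplot. The strongest positive value (0.433) joins June subplot 1 and JulyA subplot 4, and the strongest negative value (-0.318) joins June subplot 1 and JulyB subplot 1.

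Of the 894 probes, 228 carried 1 gene symbol, and 22 of the 69 symbols had 3 or more such probes. Most of these symbols are locus numbers with no description in the annotation used here. None of the 22 symbol means had the same sign on all 8 arrays. Besides MNB1b and hsp70-5, only LOC542476 had an August minus June difference above 1 in size, at -1.23. That value came from 1 subplot: LOC542476 had 0.34, 1.12, 0.31 and 0.57 over the season in subplot 1, and 2.19, 0.23, 0.37 and -0.51 in subplot 4. August and June therefore differed by 0.23 in subplot 1 and by -2.70 in subplot 4. The sign of the August minus June difference was the same in both subplots for 7 of the 22 symbols, among them MNB1b (1.41 and 1.04), hsp70-5 (-1.01 and -1.23) and LOC542733 (-0.68 and -0.77).

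LOC542441 spread more widely in subplot 1, with -0.78, -0.05, -1.37 and 0.91 from June to August, against 0.36, 0.14, 0.27 and 0.02 in subplot 4. LOC542301 had its extremes elsewhere, with 0.80 in June and -1.17 in JulyA in subplot 4, and values from -0.69 to 0.33 in subplot 1. Sod4A gave 0.58 and -0.41 on the August arrays against -0.15 and 0.21 on the June arrays, so the subplots differed in sign at both times. Median r between probes of a symbol exceeded 0.6 for 17 of the 22 symbols and was lowest for LOC542620, at 0.191. Probes of a symbol thus mostly gave like values on an array even where arrays of a time differed.

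**Figure D3:**
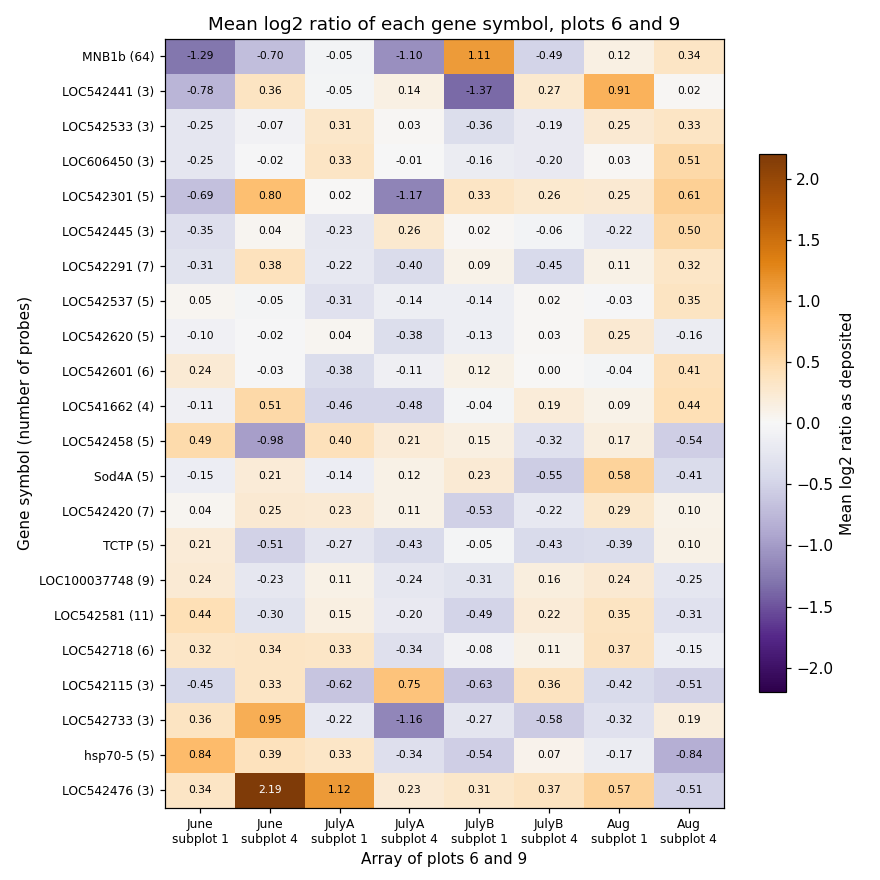
Mean log2 ratio for the 22 gene symbols with 3 or more complete probes (rows, number of probes in brackets) on each array of plots 6 and 9 (columns), with colour and printed number giving the same value. Values were converted from the deposited log10 ratios without centring. Rows are ordered by August minus June. MNB1b is at the top with 1.23, and hsp70-5 (-1.12) and LOC542476 (-1.23) are at the bottom.

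Whether single probes differed over the season was tested with limma on the 894 complete probes. For a change over the 4 times, 0 probes passed adjustment and 41 had an unadjusted p under 0.05 (4.59%). For August minus June it was 0 and 45 (5.03%), and for the slope over sampling steps 0 and 86 (9.62%). Of the 86 slopes, 66 were positive (7.38%) and 20 negative (2.24%). MNB1b held 46 of the 66, and of the 830 other probes 40 had such a p (4.82%), with 20 positive and 20 negative (2.41% each). The count of 86 became 35 without the June array of subplot 1, 56 without the August array of subplot 4 and 167 without the June array of subplot 4.

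LOC542725 (probe 3339) had the smallest p for a change over the 4 times among annotated probes. It was low at both ends and high in July: -0.29 and -1.66 in June, 1.19 and 1.48 on JulyA arrays, 1.20 and 1.09 on JulyB arrays, and -0.90 and -0.30 in August (limma F = 10.2, adjusted p = 0.965). All 4 July values lay above all 4 others. That grouping was read from the values of a probe picked for its p, and its share over all probes was not counted. The second complete probe of the gene, 1395, did not show the July rise, with JulyA and JulyB differing from June by -0.10 and -0.12 (each ± 0.42, SE). Over its 28 annotated probes, of which 7 to 21 had a value on an array, LOC542725 averaged 0.35 and -0.43 in June, 0.73 and 0.24 on JulyA arrays, 0.88 and 0.15 on JulyB arrays, and -0.29 and -0.18 in August.

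LOC542737 (probe 7422) came next and had the most negative August minus June difference of all annotated probes, -2.56 ± 0.84 (SE; limma adjusted p = 0.848). Its ratios were 1.36 and 1.23 in June, -0.99 and 1.74 on JulyA arrays, -2.14 and -0.93 on JulyB arrays, and -0.70 and -1.83 in August. It was negative from JulyA on in subplot 1 and from JulyB on in subplot 4. Of the gene's 9 probes, 2 to 9 had a value on an array, and their mean had the sign of probe 7422 on each array. That mean was 1.20 and 1.16 in June, -0.68 and 1.84 on JulyA arrays, -1.49 and -1.19 on JulyB arrays, and -0.34 and -1.25 in August. LOC541886 (probe 10426) had 1.41 and 0.50 in June and -0.71 and -0.76 on JulyA arrays, and its August minus June difference was -1.17 ± 0.46. The mbd115 probe 471, for a protein with a methyl-CpG-binding domain, was lowest in JulyB at -2.0 and -0.82, with 0.25 and 0 in August against 0.16 and 0.51 in June. The remaining annotated probes among the 10 with the smallest p were hsp70-5 probe 5655 and MNB1b probes 6476, 2095, 1621, 10543 and 6134, all with a limma adjusted p of 0.965.

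A constant difference between the plots was tested as the mean over the 8 arrays. These arrays hold 3 sets of plant codes sampled repeatedly, so they are not 8 separate samples of each plot. In limma, 0 of 894 probes passed and 40 had an unadjusted p under 0.05 (4.47%), 20 positive and 20 negative (2.24% each). The same sign on all 8 arrays was seen for 11 probes (1.23%), of which 2 were annotated. TCTP probe 10443 was negative throughout, with -0.26 and -0.31 in June, -0.16 and -0.61 on JulyA arrays, -0.18 and -0.40 on JulyB arrays, and -0.50 and -0.03 in August. Its mean was -0.31 ± 0.12 (SE, n = 8; limma adjusted p = 0.949). All 5 complete TCTP probes had a negative mean, between -0.31 and -0.17, where 48.1% of all probes had a positive one. On the June array of subplot 1, however, the other 4 TCTP probes were positive. The mean of the 5 TCTP probes was also positive on the August array of subplot 4, at 0.10. On the JulyB array of subplot 1, TCTP probe 4678 was positive, at 0.10. LOC542701 probe 1018 was positive throughout, from 0.03 to 0.47, with a mean of 0.22 ± 0.12 (limma adjusted p = 0.949). The second complete LOC542701 probe, 16844, ran from -0.72 to 1.39 with 4 negative arrays, and r between both probes was -0.215 over the 8 arrays. Other symbols leaned to 1 side without a probe of the same sign on all 8 arrays. Of the 64 complete MNB1b probes 62 had a negative mean (median -0.25), and all 3 LOC542476 probes had a positive one (median 0.57). In limma 2 LOC542476 probes and 0 MNB1b probes had an unadjusted p under 0.05. Probes of a symbol are not separate observations.

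The next question was whether the plot difference was unlike in subplot 1 and subplot 4. This contrast concerns the ratio between plots, since no array set subplots of a plot side by side. The 4 arrays of subplot 1 share plant codes, as do 3 of those of subplot 4. Subplots and plant codes therefore cannot be told apart here, and the SEs are over repeated samplings rather than separate plants. LOC542454 (probe 931) was positive on every subplot 1 array, with 0.77, 0.78, 0.76 and 1.0 from June to August, against -1.44, -0.52, -0.36 and -0.83 in subplot 4. Its difference was 1.61 ± 0.29 (SE; limma adjusted p = 0.187), and its p was the smallest of any probe in this test. Values of subplots 1 and 4 did not overlap, which held for 3.69% of all probes. A second LOC542454 probe, 2024, differed by 1.26 ± 0.50 with overlap, at 1.82, -0.51, 0.11 and 1.21 against -1.32, -0.09, -0.35 and -0.62.

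LOC542386 (probe 8098) also did not overlap, with 0.34, 0.61, -0.12 and 0.84 in subplot 1 against -0.48, -0.37, -0.86 and -0.66 in subplot 4, a difference of 1.02 ± 0.28 (SE; limma adjusted p = 0.349). Over all LOC542386 probes with a value the order turned on JulyB arrays, where their mean was -0.34 in subplot 1 and 0.41 in subplot 4. On the negative side, LOC542479 (probe 7279) had -0.25, -0.86, -1.77 and 0.06 in subplot 1 against 2.43, -0.01, 0.08 and 0.87 in subplot 4, a difference of -1.55 ± 0.57. LOC542441 probe 9834 differed by -1.12 ± 0.47 and LOC542374 probe 6174 by -0.90 ± 0.46. The 3 LOC542115 probes averaged -0.45, -0.62, -0.63 and -0.42 in subplot 1 against 0.33, 0.75, 0.36 and -0.51 in subplot 4, so they stood apart until JulyB and overlapped in August. Over all probes limma called 0 of 894, with 60 at an unadjusted p under 0.05 (6.71%). LOC542458 (probe 18191) and MNB1b (probe 7669) completed the 5 largest positive differences among probes with a symbol, at 1.15 ± 0.41 and 1.02 ± 0.61. Over all 894 probes the differences ran from -2.29 to 1.98.

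Plots 4 and 5 were also sampled at all 4 times with a fixed dye order, plot 4 always in Cy5, and 7 of their 8 arrays held values. Their treatments are not given either, so only the size and side of the seasonal difference could be set against that of plots 6 and 9. Both pairs are taken to have been deposited in the same direction. On the 415 probes with a value on all 15 arrays, limma called 5 for a difference in August minus June (1.2%), all more negative in plots 6 and 9, with 25 at an unadjusted p under 0.05 (6.02%). For the slope over sampling steps it called 4 (0.964%), each among those 5, with 75 at an unadjusted p under 0.05 (18.1%). Plots 4 and 5 have a single August array, of subplot 2 in plot 4 and subplot 4 in plot 5. Its plant codes are not those of either June array of that pair. A change between August and June in plots 4 and 5 therefore cannot be told apart from a change of plant codes.

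The 2 annotated probes among the 5 were of hsp70-5. Probe 8475 had -0.11 and -0.88 in August against 0.95 and 0.79 in June in plots 6 and 9, and 1.84 in August against 0.28 and 0.25 in June in plots 4 and 5. The seasonal differences were -1.36 and 1.57, and their difference was -2.94 ± 0.61 (SE; limma adjusted p = 0.0461). Probe 5655 had differences of -1.70 in plots 6 and 9 and 1.13 in plots 4 and 5, which differed by -2.83 ± 0.59 (limma adjusted p = 0.0461). Its slopes per sampling step were -0.55 and 0.35, which differed by -0.90 ± 0.16 (limma adjusted p = 0.0136). In August both probes were negative on both arrays of plots 6 and 9 and positive on the array of plots 4 and 5. The third hsp70-5 probe measured in both pairs, 97, had August minus June differences of 0.24 in plots 6 and 9 and 0.54 in plots 4 and 5, which differed by -0.30 ± 0.63 (limma adjusted p = 0.930).

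The other 3 probes, 2467, 4983 and 10448, have no symbol in the annotation used here. Probe 10448 had an August minus June difference of -1.90 in plots 6 and 9 and 1.19 in plots 4 and 5, probe 4983 of -1.87 and 1.10, and probe 2467 of -0.78 and 1.71. Their ratios followed the mean of the 3 hsp70-5 probes measured in both pairs, with r of 0.855 (probe 10448), 0.695 (probe 4983) and 0.751 (probe 2467) over the 8 arrays of plots 6 and 9. Over the 7 arrays of plots 4 and 5, r was 0.927, 0.777 and 0.880 in the same order of probes. These correlations describe probes picked for their calls, on arrays that share plant codes. With pair and subplot as a block, none of the 5 kept its August minus June call (adjusted p = 0.112 to 0.165), and hsp70-5 probe 5655 and probe 10448 kept their slope calls (adjusted p = 0.0459 each). Leaving out 1 array of either pair gave 0 August minus June calls in 13 of 14 cases, the exception being the August array of subplot 1 in plots 6 and 9, with 4. The slope calls became 0 without the June array of subplot 1 or the August array of subplot 4 in plots 6 and 9, or without the second June array or the August array of plots 4 and 5. They became 25 without the June array of subplot 4 and 7 without the JulyA array of subplot 4 in plots 6 and 9.

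**Figure D4:**
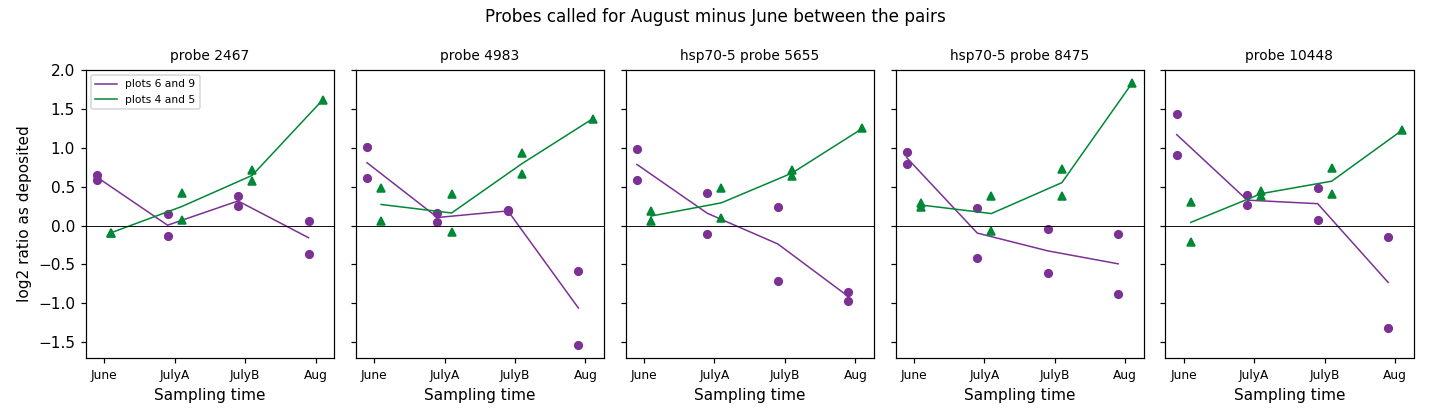
Log2 ratios (vertical axis) by sampling time (horizontal axis) for the 5 probes called for August minus June between the pairs. Values were converted from the deposited log10 ratios without centring. Circles are arrays of plots 6 and 9, triangles are arrays of plots 4 and 5, and lines join the means of a time. In each panel the June circles lie above the June triangles and the August circles below the single August triangle.

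MNB1b differed between the pairs in the opposite sense, without a call. Its 39 probes measured on all 15 arrays had a median August minus June of 1.21 in plots 6 and 9 and -0.44 in plots 4 and 5. The difference was positive for 39 of 39, against 57.6% of all 415 probes, but only 4 of the 39 had an unadjusted p under 0.05. Positive differences with such a p made up 2.89% of all 415 probes and 2.13% of the 376 that are not MNB1b. Differences in either direction made up 6.02% of all probes. The median slope per sampling step was 0.46 in plots 6 and 9 and -0.26 in plots 4 and 5. The difference between slopes had an unadjusted p under 0.05 for 32 of the 39. Positive differences with such a p made up 13.7% of all 415 probes and 6.65% of the 376 others (11.4% in either direction). Probe 6476 had slopes of 0.56 and -0.38, which differed by 0.93 ± 0.26 (SE; limma adjusted p = 0.115), and probe 5679 slopes of 0.45 and -0.37, which differed by 0.83 ± 0.23 (limma adjusted p = 0.115). For probe 1621 the slopes differed by 0.84 ± 0.26. The Sod4A probe 5774 had an August minus June of -0.08 in plots 6 and 9 and 2.13 in plots 4 and 5, a difference of -2.22 ± 0.73 (limma adjusted p = 0.502). The other Sod4A probe measured in both pairs, 1729, had 0.36 in plots 6 and 9 and 0.28 in plots 4 and 5, a difference of 0.08 ± 0.65 (limma adjusted p = 0.972).

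The arrays also differed in how many probes carried a value. Subplot 1 arrays had 2700, 4392, 6041 and 8697 from June to August, and subplot 4 arrays had 5441, 3916, 5273 and 6598. The number grew by 1223 per sampling step (exact permutation test of the slope, times permuted within subplots, two-sided p = 0.0278, where 0.00347 is the smallest possible). Leaving out the JulyA, JulyB or August array of subplot 1 gave exact p = 0.0625 each, and leaving out the August array of subplot 4 gave exact p = 0.0556. The June array of subplot 1 thus had the fewest values, and it also had the lowest MNB1b and the highest hsp70-5 mean of the 8. The scaled median absolute deviation of log2 ratios was between 0.51 and 0.81, and its slope over the season did not pass the test (-0.01 per step, exact permutation p = 0.844). Whether the number of values has a part in the seasonal differences was not tested.

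**Figure D5:**
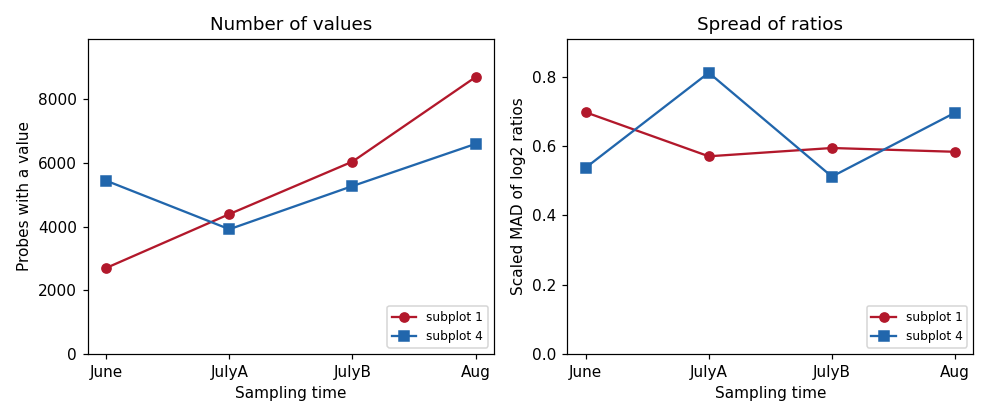
Number of probes with a value (left) and scaled median absolute deviation (MAD) of log2 ratios (right) on each array of plots 6 and 9, by sampling time, with 1 line per subplot. The number of values is lowest on the June array of subplot 1 (2700) and highest on the August array of subplot 1 (8697), and the spread is widest on the JulyA array of subplot 4 (0.81).

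The probes with a value also differed between August and June. Of 19200 probes, 12079 had a value on at least 1 of the 8 arrays. Both August arrays but no June array gave a value for 1714 probes, and both June arrays but no August array for 38. Of the 1714, 161 had a gene symbol. The lack of a value does not show that a transcript was absent, since the rule by which values were left out is not given. The symbols were searched for a short list of marker names. For leaf tissue only a Cab-m7 probe for a chlorophyll-binding protein was found, with a value on 3 of the 8 arrays. None of the names listed for other organs was found. As 539 of the 583 symbols are locus numbers, the search could miss markers, so the tissue could not be checked.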

How the data were processed

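Per the labels' protocols, RNA came from an RNeasy extraction and was dye-labelled with Genisphere reagents. The deposited values are log10 ratios of the 2 channels of each array. This scale was settled from the values: in 1500 values per array, 86.9% to 98.7% equalled the log10 of 1 whole number over another of at most 1000 (tolerance 6e-10), and at most 0.133% when read as log2 or natural log. No source used here describes the image processing, the normalization or the filters. On the log2 scale the medians of the 34 arrays with values and a known pair ran from -0.11 to 0.12. No further centring was applied.

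Values were converted to log2 and read through the sample labels. Probes with a value on all 8 arrays of plots 6 and 9 (894) entered linear models (limma 3.58.1, R 4.3.3): the mean, cell means of the 4 times, a slope over sampling steps taken as equal, and subplot 1 minus subplot 4. Benjamini-Hochberg adjustment ran over all probes tested, with 0.05 as the threshold. The comparison with plots 4 and 5 used probes with values on all 15 arrays. Each test used limma's moderated variance, checked on simulated data. Duplicate correlation used statmod 1.5.0. Alternatives were centring, scaling, a looser filter, the block of subplots, all 34 arrays in 1 fit and leaving out each array. Signal over background is not in the values, and precision is limited by how many arrays there are. P-values measure the spread between arrays, which share plant codes.

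The subplot number pairs arrays over time, and the labels' plant codes match within a subplot except on the JulyB array of subplot 4. However, the deviations of same-subplot arrays from the time means correlated between -0.303 and 0.362. Named probes carry 1 symbol. They were the 10 with the smallest p over the 4 times, the 8 largest in each direction for August minus June and the slope, those with 1 sign on all 8 arrays, the 5 largest in each direction between subplots, the 5 smallest p against plots 4 and 5, and any called. Probes 97, 1395, 1729, 6217, 8525 and 16844 were named after their values were seen. Of 19200 probes, 1800 had 1 symbol, 23 several and 17377 none. Lists for opr and tubulin genes had no complete probe, mbd had 1 and RPL27A 2. The pair, the lists and the rules were chosen with earlier results of these data known. Of the 36 columns, 1 held no values and 1 named the same plant in both channels.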

Additional observations from a re-analysis of the deposited data

Results flagged for a closer look

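The seasonal difference was tested between plots 6 and 9 and plots 4 and 5, and 5 probes differed for August minus June: -2.48 (probe 2467), -2.97 (probe 4983), -2.83 (hsp70-5 probe 5655), -2.94 (hsp70-5 probe 8475) and -3.09 (probe 10448). In the slope per sampling step 4 of them differed: -0.71 (probe 2467), -0.92 (probe 4983), -0.90 (hsp70-5 probe 5655) and -0.92 (probe 10448). For each of the 5, the August arrays of plots 6 and 9 lay below their June arrays, and the August array of plots 4 and 5 lay above its June arrays. The 5 were picked by this same contrast, so that order describes the calls and adds no support to them. With pair and subplot as a block, none of the 5 kept its August minus June call (limma adjusted p = 0.112 to 0.165), and probes 5655 and 10448 kept their slope calls. Plots 4 and 5 had 1 August array, whose plant codes are not found on their June arrays. No array stood far enough from the other 7 to be marked in the 64 series of values tested.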

How the results depend on the processing

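Within plots 6 and 9 the counts of 0 calls held under median centring, scaling, at least 6 of 8 arrays, the block of subplots or plant codes, sampling time as a block for the subplot contrast, and leaving out each array (0 calls in each of the 5 tests). Unadjusted counts without 1 array ran from 30 to 77 for the plot difference (77 without JulyB subplot 1), 26 to 89 over the 4 times (26 without August subplot 4, 89 without JulyB subplot 4), 27 to 95 for August minus June (27 without August subplot 4, 95 without June subplot 4) and 31 to 81 between subplots (31 without June subplot 4). With the spread of all 34 arrays, on 788 probes, 1 probe was called over the 4 times (LOC542725 probe 3339, adjusted p = 0.0406), 3 for August minus June (4983, 8525 and 10448, adjusted p = 0.0104) and 3 for the slope (hsp70-5 probe 5655, 8525 and 10448, adjusted p = 0.0417). Against plots 4 and 5, the 5 August minus June calls became 2 after centring and scaling, 0 with the replicate block (19 unadjusted), and 0 to 4 without 1 array; 0 was found for each array left out except the August array of subplot 1 in plots 6 and 9. Leaving out the August array of plots 4 and 5 gave no value. The 4 slope calls became 7 after centring, 7 after centring and scaling, 2 with the replicate block, and 0 to 25 without 1 array. They were 0 without the June array of subplot 1 or the August array of subplot 4 in plots 6 and 9, and 0 without the second June array or the August array of plots 4 and 5. They were 25 without the June array of subplot 4 and 7 without the JulyA array of subplot 4 in plots 6 and 9. The cause was not tested. The slope of the number of probes with a value per array ran from 881.9 to 1660 without 1 array (exact permutation p = 0.0139 to 0.0625). The slope of the spread of ratios per array ran from -0.0298 to 0.00713, turning positive without June subplot 1 (0.00713), JulyA subplot 4 (0.00368) or August subplot 1 (0.00016). Centring moved the median of a single array by at most 0.11 and changed no sign of the MNB1b or hsp70-5 means. Arrays without a second array of their time are taken to vary like the others.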
